A study of Mus musculus with 4 samples.

Results

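The genes described here are the initiation and elongation factors of cytosolic translation, together with the kinases, binding proteins and methyltransferases named after them. They were chosen by symbol alone, as every gene of the count table whose name begins with EIF or EEF and a number, leaving out the Y-linked Eif2s3y. This gave 67 genes of 24943 in the table. Their poly(A) RNA was sequenced in 4 samples of mouse spleen cells from spleens swollen with lymphoma, for a study of how a TP63 fusion bears on the making of lymphomas. All 4 are labelled as spleen cells of a transgenic mouse with tumour, and the labels give no transgene, strain or age and no second group. Red cells were lysed, but no sort for tumour cells is described, and separate animals are not stated in the labels, which leaves technical variation as a possible share of the spread. Library GW19 is named lymphoma 1 here, GW95 is lymphoma 2, GW255 is lymphoma 3 and GW328 is lymphoma 4, and sets of 4 values follow that order. Since all samples form 1 group, no conditions can be tested and p-values are not given. Differences between libraries are described by their size alone, and every interval covers only counting error.

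Protein synthesis starts when eIF2 delivers the initiator tRNA to the small ribosomal subunit, helped by eIF1, eIF1A, eIF3 and eIF5. The mRNA is brought in by eIF4F, made of the cap-binding protein eIF4E, the scaffold eIF4G and the helicase eIF4A, and eIF5B then joins the large subunit. eIF4E is held back by the 4E-BPs, targets of mTOR, and eIF2 is switched off when one of its kinases phosphorylates its alpha subunit, which blocks the exchange factor eIF2B. During elongation eEF1A brings each aminoacyl-tRNA, the eEF1B subunits reload it with GTP, eEF2 moves the ribosome along and eIF5A relieves stalls. In lymphoid cells this machinery is known as a target of MYC and mTOR, and it increases when resting cells are activated.

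The libraries held 7773546 to 9602413 counts. Values are CPM, read counts scaled to library size, with the sizes adjusted for composition by TMM, a trimmed mean of log ratios. Where no read was counted, a level of up to 3 counts cannot be told from 0, or 0.294 to 0.379 CPM by library. Samples of a spleen hold mixed cells, and in such samples fewer cells of a type and less RNA per cell cannot be told apart. The 10 B cell markers summed to 73.8, 1473, 5310.4 and 6662 CPM and the 10 T cell markers to 5859.9, 4485, 880.4 and 939 CPM, and none of these 20 was at 0 counts in any library. All 10 B cell markers were lowest in lymphoma 1 and 8 of the 10 T cell markers in lymphoma 3. The 12 proliferation genes summed to 3445, 2567, 4099.7 and 495 CPM, and 11 of them were lowest in lymphoma 4. Lymphomas 1 and 2 may not be independent values. Over 41 genes of 20 CPM or more in lymphoma 1 that were 50-fold or more lower in lymphomas 3 and 4, lymphoma 2 held a median of 0.666 of the CPM of lymphoma 1 (quartiles 0.648 and 0.697). Among translation factor genes that ratio was 0.790 in the median (quartiles 0.736 and 0.941), and 1 of 62 lay below 0.65.

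Counts were present for 62 of the 67 genes, and all 62 passed the filter of 1 CPM in at least 1 library. The other 5 had 0 counts in each library: Eef1a2, the eEF1A form of muscle and neurons, Eif4e1b, an oocyte form of eIF4E, Eif3j1, Eif3j2 and the readthrough Eef1akmt4-Ece2. A count of 0 says little for Eif3j1 and Eif3j2, near-identical copies whose reads can be lost when they match both. In the authors' table of FPKM (fragment counts scaled to transcript length and library size), Eif3j1 was at 11.7, 18.8, 9.16 and 13.1 FPKM. Its copy Eif3j2 was at 13.6, 4.17, 6.48 and 0.00603 FPKM. How those reads were split cannot be seen, so eIF3j was left out of the counts below.

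Most translation factor genes were highest in lymphoma 1 and lowest in lymphoma 4. Together they took 6.64, 5.78, 4.32 and 3.66% of all counts (5.100 ± 1.36%, SD, n = 4). Without Eef1a1, which alone made up 37.9 to 47.00% of these counts, the shares were 3.59, 3.16, 2.68 and 1.94%, in the same order of libraries. Of the 62 genes, 43 had their highest CPM in lymphoma 1, against 29.4% of all 13543 genes tested, and 41 had their lowest in lymphoma 4, against 33.2%. Both held for 38 genes (background 19.3%), and 33 lay in the full order of lymphoma 1 above 2 above 3 above 4 (background 14.2%). The opposite extreme was less frequent than in all genes: 12 were lowest in lymphoma 1 (background 35.7%) and 4 highest in lymphoma 4 (background 34.0%). Lymphoma 3 was highest for 12 (background 30.4%) and lowest for 7 (background 21.3%). Lymphoma 2 was seldom at either end, highest for 3 genes (background 6.32%) and lowest for 2 (background 5.07%). Lymphoma 4 lay 2-fold or more below lymphoma 1 in 39 genes (24.6% of all genes) and 2-fold or more above it in 9 (31.2%). The median difference of lymphoma 4 from lymphoma 1 was -1.39 in log2(CPM + 1) over the 62 genes and 0.12 over all genes tested. With total counts in place of TMM, the median of all genes was 0.39 higher and that of translation factor genes was -0.92, with 27 genes 2-fold or more lower and 11 higher. With a trend on implied transcript length (described below) removed, the median of translation factor genes was -0.67 and that of all genes was -0.013. In that setting 22 genes were 2-fold or more lower and 6 higher. Shares over all genes are not given for the 2-fold counts with total counts or with this trend removed. Lymphoma 4 was also the library lowest in proliferation genes and highest for 6 of 8 neutrophil, 6 of 8 macrophage and 6 of 6 dendritic cell markers. The part of either in the translation factor values was not tested. Without lymphoma 2, 45 genes were highest in lymphoma 1 and 42 lowest in lymphoma 4. No share over all genes is given without lymphoma 2, so these counts are a description only.

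**Figure D1:**
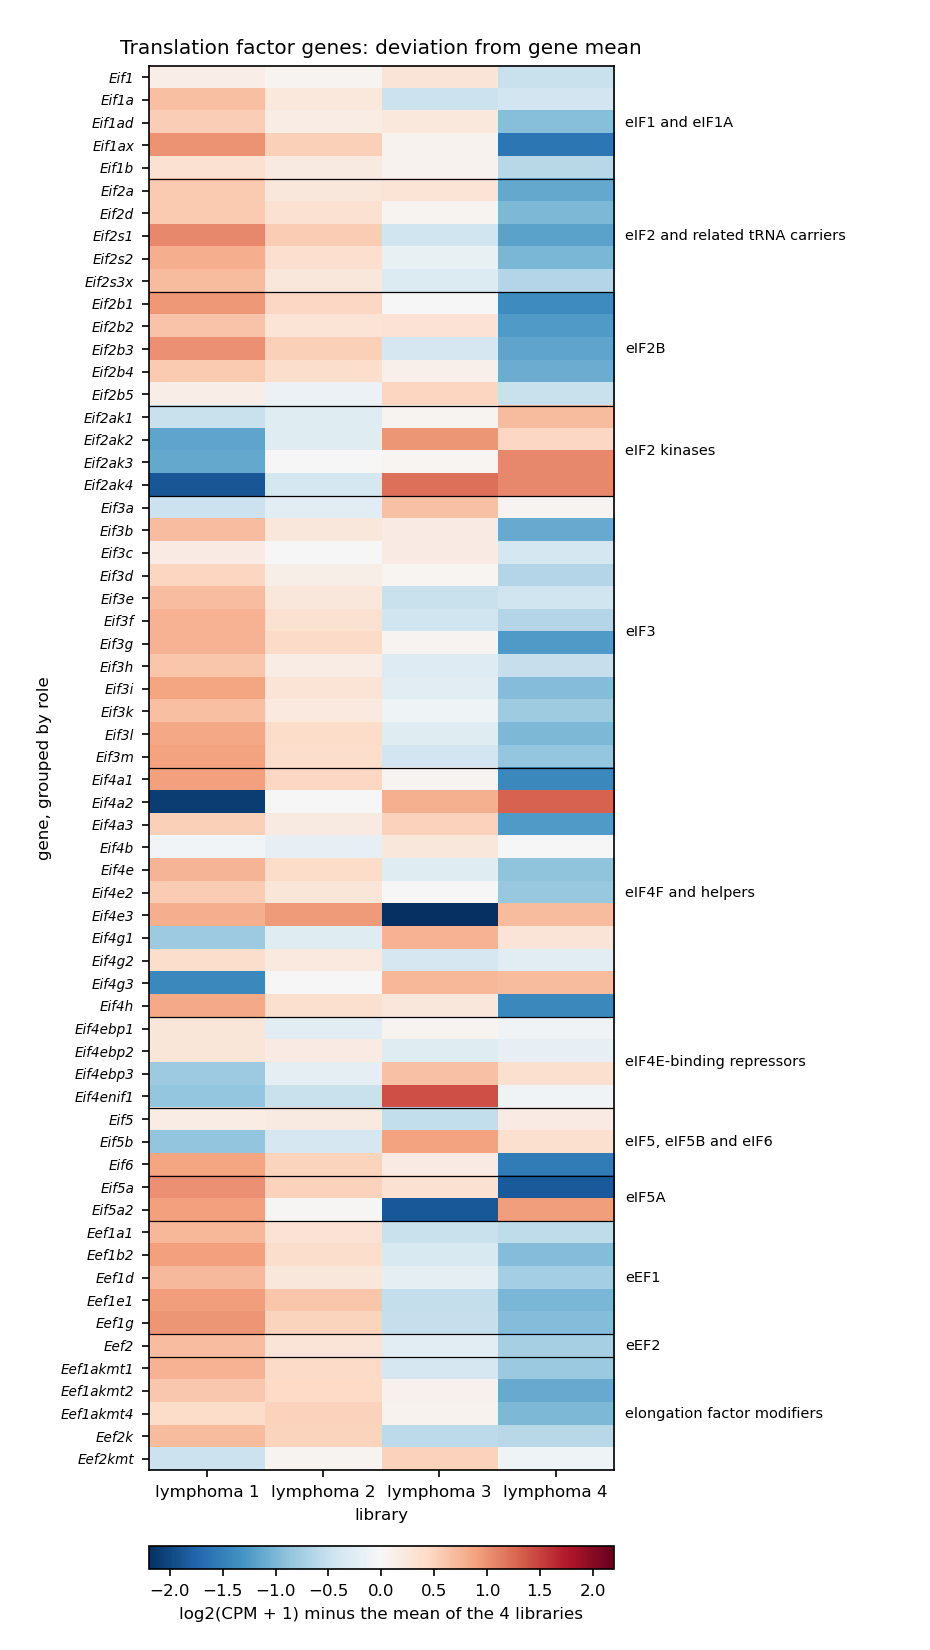
Deviation of each of the 62 translation factor genes from its own mean over the 4 libraries, in log2(CPM + 1), with genes in rows grouped by role and libraries in columns. Most rows are red in lymphoma 1 and blue in lymphoma 4, while the 4 eIF2 kinases and Eif4a2 run the other way and Eif4e3 and Eif5a2 are lowest in lymphoma 3.

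Start-site selection factors were lower in lymphoma 4 than in lymphoma 1, to different degrees. Eif1, whose product guards the choice of start codon, was among the steadier genes at 596, 559, 659 and 383 CPM. Its extremes, lymphoma 3 at the top and lymphoma 4 at the bottom, were 1.72-fold apart, although its log2 difference between lymphomas 4 and 1 turned from -0.64 to 0.37 with the trend on implied transcript length (described below) removed. The tRNA-placing factor eIF1A has a gene pair, Eif1a on chromosome 18 and Eif1ax on the X chromosome. The X-linked Eif1ax was at 338, 246, 180.4 and 55.7 CPM, a range of 5.98-fold, and its partner Eif1a was at 167, 124, 75.4 and 78.7 CPM. Lymphoma 4 thus stood far below the other libraries for Eif1ax but not below lymphoma 3 for Eif1a. The share of Eif1ax in the summed FPKM of both was 60.6, 59.03, 65.99 and 36.2%, lowest in lymphoma 4. These genes are close in sequence, so reads may be split between them with error.

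All 3 subunit genes of eIF2 lay in the order lymphoma 1, 2, 3, 4 (background 14.2%). Eif2s1, which encodes the alpha subunit that the stress kinases phosphorylate, was at 413, 292, 145 and 86.3 CPM, a 4.75-fold range. Eif2s2, the beta subunit gene, was at 404, 302, 207 and 115 CPM, and the gamma subunit gene Eif2s3x at 281, 206, 141 and 111 CPM. Per length the subunits were within 1.43-fold of each other in lymphoma 1 and 2.39-fold in lymphoma 4, with Eif2s1 the lowest in FPKM in every library. Eif2a and Eif2d, which carry initiator tRNA outside the eIF2 route, were also highest in lymphoma 1 and lowest in lymphoma 4, at 199, 159.8, 165 and 60.8 CPM for Eif2a. All 5 genes of the exchange factor eIF2B were lowest in lymphoma 4 (background 33.2%) and 4 of them highest in lymphoma 1 (background 29.4%). Eif2b1, for the regulatory alpha subunit, was at 120.4, 84.98, 61.6 and 22.98 CPM and Eif2b2, for the beta subunit, at 131, 103, 105 and 34.9 CPM. The catalytic epsilon subunit gene Eif2b5 varied least among them, at 80.7, 67.2, 102 and 51.6 CPM, and was highest in lymphoma 3. The medians of the eIF2B genes were 6.35, 6.15, 5.97 and 4.67 in log2(CPM + 1).

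The 4 eIF2 kinase genes ran the other way. Each was lowest in lymphoma 1 (background 35.7%) and was 2-fold or more higher in lymphoma 4 (background 31.2%). Eif2ak4 encodes GCN2, which senses uncharged tRNA. It was at 4.93, 15.6, 49.5 and 44.3 CPM (Poisson 95% interval 3.503 to 6.73 CPM in lymphoma 1 and 40.1 to 48.9 in lymphoma 4), with 39, 140, 504 and 403 counts. Lymphomas 3 and 4 were close, lymphoma 2 was lower and lymphoma 1 lowest, with a range of 8.51-fold. Eif2ak3, for the endoplasmic reticulum stress sensor PERK, was at 19.6, 44.3, 45.1 and 92.3 CPM and highest in lymphoma 4. Eif2ak2, for the double-stranded RNA sensor PKR, an interferon-induced gene, was at 7.83, 15.5, 37.7 and 26.2 CPM and highest in lymphoma 3. Eif2ak1, for the haem-regulated kinase HRI, had the smallest range of the 4, at 39.9, 46.4, 58.6 and 91.5 CPM and 2.26-fold. The kinases' medians were 3.75, 4.78, 5.59 and 6.02 in log2(CPM + 1), while those of the eIF2 group were 8.14, 7.69, 7.19 and 6.45. The summed FPKM of the 4 kinases was 0.154, 0.343, 0.996 and 2.18 times that of their substrate gene Eif2s1. Kinase transcripts are long (exonic length 5113 to 7457 bases), and long transcripts were lower in lymphoma 1 across all genes. With the exonic length trend of each library removed, lymphoma 4 exceeded lymphoma 1 by 2.37 in log2 for Eif2ak4 (from 2.93), by 1.82 for Eif2ak3, by 1.41 for Eif2ak2 and by 0.87 for Eif2ak1 (from 1.18, no longer 2-fold). With the implied length trend removed instead, the differences were 2.12 for Eif2ak4, 1.504 for Eif2ak3 (from 2.18), 0.80 for Eif2ak2 (from 1.62, no longer 2-fold) and 1.24 for Eif2ak1. In the FPKM table Eif2ak4 differed by 1.75 and Eif2ak2 by 1.11 in log2(FPKM + 1). Eif2ak1, Eif2ak2 and Eif2ak3 have exons that overlap genes on the opposite strand, and the strand setting of the counts is not given in the sources used here. Eif2ak4 overlaps no other exon.

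**Figure D2:**
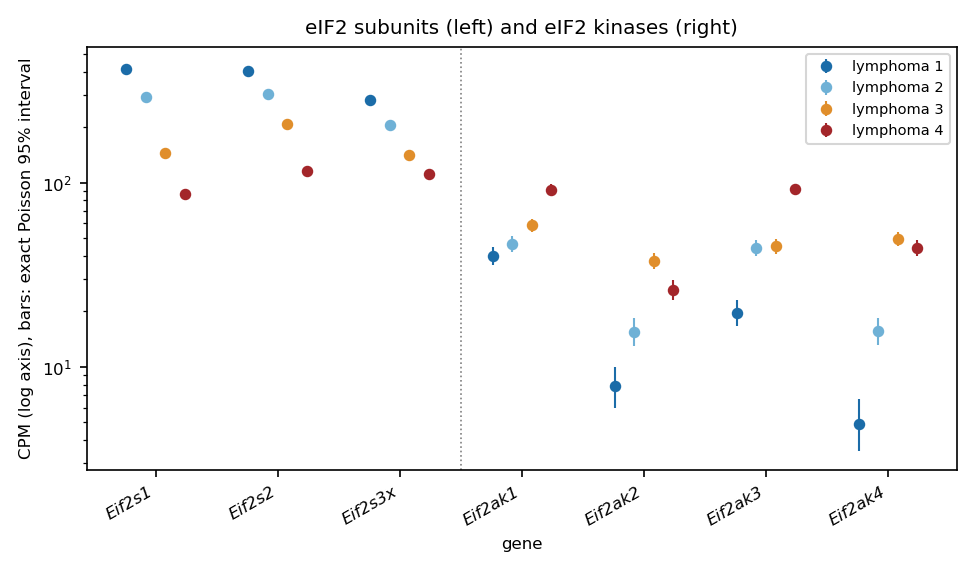
CPM on a log axis of the 3 eIF2 subunit genes (left) and the 4 eIF2 kinase genes (right) in each lymphoma, with exact Poisson 95% intervals as bars. Subunit genes descend from lymphoma 1 to lymphoma 4, and each kinase gene is lowest in lymphoma 1.

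eIF3, the largest initiation factor, binds the small subunit and holds the initiation complex together. Of its 12 measured subunit genes, 11 had their highest CPM in lymphoma 1 (background 29.4%) and 10 their lowest in lymphoma 4 (background 33.2%). The medians were 9.31, 8.85, 8.49 and 7.73 in log2(CPM + 1). Eif3f, the most abundant by CPM, was at 1467, 1089, 639 and 554 CPM, and Eif3g, for an RNA-binding subunit, at 326, 255, 198 and 80.4 CPM. With the implied length trend removed, lymphoma 4 differed from lymphoma 1 in log2 by -0.60 for Eif3f (from -1.40). For Eif3g the difference was then -0.93 (from -2.01), and both were under 2-fold. Eif3g had the widest range of the complex (4.02-fold), while Eif3c, of the core, had the narrowest (1.49-fold) at 352, 313, 351 and 237 CPM. Eif3a, which encodes the scaffold subunit and is the longest of these transcripts (8731 bases), was the exception. It was at 177, 211, 386 and 259 CPM, lowest in lymphoma 1 and highest in lymphoma 3. Though their products form one complex, these genes were far apart per length: FPKM ran from 17.3 for Eif3a to 754 for Eif3h in lymphoma 1, 43.5-fold. That spread was 26.6-fold in lymphoma 2, 11.6-fold in lymphoma 3 and 12.7-fold in lymphoma 4, with Eif3a lowest and Eif3h highest in FPKM in each.

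**Figure D3:**
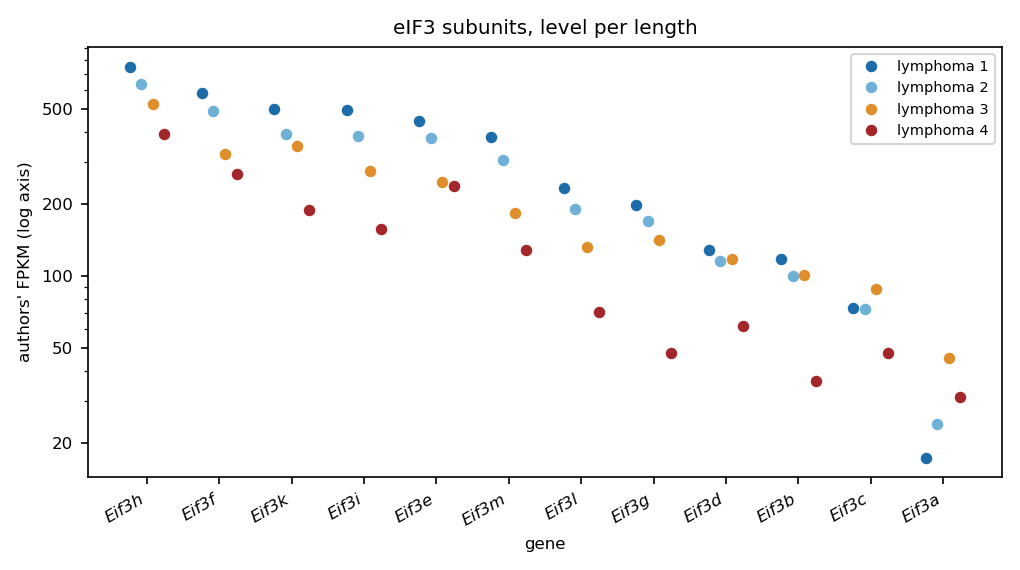
The authors' FPKM on a log axis for the 12 measured eIF3 subunit genes, ordered by mean FPKM, with 1 point per lymphoma. Eif3a alone has lymphoma 1 as its lowest point, and the vertical distance between Eif3h and Eif3a is widest in lymphoma 1.

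Within the cap-binding complex, paralogs differed in opposite directions. The helicase eIF4A has a pair of cytosolic forms, eIF4A1, the main form in growing cells, and eIF4A2, which is relatively more abundant in resting and differentiated cells. Eif4a1 (chromosome 11, 69666936 to 69672423, minus strand, GRCm38) was at 1826, 1351, 1025 and 366 CPM. Eif4a2 (chromosome 16, 23107444 to 23114136, plus strand) was at 56.3, 242, 415 and 595 CPM (Poisson 95% interval 51.2 to 61.8 in lymphoma 1 and 579 to 611 in lymphoma 4). The order of the libraries was thus exactly reversed, with no overlap of counting intervals within either gene. Eif4a2 had the widest range of the 62 genes (10.4-fold) and stood 4-fold or more below the nearest library in lymphoma 1, a call that was lost with DESeq2 size factors and with either length trend removed. Its share of the summed FPKM of Eif4a1 and Eif4a2 was 1.34, 7.004, 15.6 and 44.7%, and by counts over exonic length it was 2.44, 12.7, 24.7 and 56.9%. The pair have similar exonic lengths (4334 and 5338 bases). With the exonic length trend removed, lymphoma 4 was 3.13 above lymphoma 1 in log2 for Eif4a2 and differed by -2.37 for Eif4a1. With the implied length trend removed, the differences were 3.28 for Eif4a2 and -1.52 for Eif4a1 (from -2.32). The range of Eif4a1 was then under 4-fold. Exons of Eif4a2 overlap small nucleolar RNA genes on the same strand and Rfc4 on the other, and those of Eif4a1 overlap small RNA genes, so some reads may be assigned with error. Eif4a3, the exon junction complex member of the family, was at 359, 287, 356 and 105 CPM and lowest in lymphoma 4. The eIF4A cofactors differed from each other: Eif4h was at 769.8, 551, 515 and 162 CPM, whereas Eif4b was the steadiest of the 62 genes at 584, 543, 726 and 611 CPM, a mean of 616 ± 78.1 CPM (SD, n = 4).

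The promoters of the helicase pair, of their scaffold partner and of Eef2 are shown. Eif4a1 and Eef2 share an order of libraries, from which Eif4a2 and Eif4g1 differ. The MYC-binding E-box, CACGTG, is a known feature of translation factor genes. The windows are the 250 bases before the RefSeq start (GRCm38.p6), 5′ to 3′, with each CACGTG in capitals. The Eif4g1 window lies inside the longer GENCODE gene, which begins at 20668313.
Eif4a1 (chr11:69672424-69672673, minus strand): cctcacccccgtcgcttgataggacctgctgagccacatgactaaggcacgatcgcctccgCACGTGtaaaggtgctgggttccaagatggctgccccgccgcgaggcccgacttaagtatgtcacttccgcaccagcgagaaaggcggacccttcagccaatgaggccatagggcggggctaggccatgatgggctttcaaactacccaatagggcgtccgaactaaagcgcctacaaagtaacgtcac
Eif4a2 (chr16:23107218-23107467, plus strand): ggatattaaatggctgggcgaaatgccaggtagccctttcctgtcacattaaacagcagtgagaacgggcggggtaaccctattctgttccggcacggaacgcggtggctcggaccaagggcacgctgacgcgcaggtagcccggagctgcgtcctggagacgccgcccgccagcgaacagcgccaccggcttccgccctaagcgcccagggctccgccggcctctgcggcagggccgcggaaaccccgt
Eif4g1 (chr16:20672477-20672726, plus strand): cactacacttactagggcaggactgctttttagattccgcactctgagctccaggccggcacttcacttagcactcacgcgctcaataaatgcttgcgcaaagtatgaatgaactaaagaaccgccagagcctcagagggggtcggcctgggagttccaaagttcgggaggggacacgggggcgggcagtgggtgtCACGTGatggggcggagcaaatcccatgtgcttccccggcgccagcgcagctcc
Eef2 (chr10:81176381-81176630, plus strand): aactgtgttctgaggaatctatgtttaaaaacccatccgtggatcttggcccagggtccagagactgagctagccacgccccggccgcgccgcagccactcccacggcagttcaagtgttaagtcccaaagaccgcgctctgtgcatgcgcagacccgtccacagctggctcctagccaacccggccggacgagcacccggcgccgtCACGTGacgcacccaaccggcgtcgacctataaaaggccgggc
The motif reads the same on both strands. It begins 189 bases before the start of Eif4a1, 54 before that of Eif4g1 and 43 before that of Eef2. Its letters are absent from the Eif4a2 window and from the Eef1a1 window, which is not shown. Eef1a1, like Eif4a1 and Eef2, was highest in lymphoma 1 and lowest in lymphoma 4. RefSeq windows were matched for 52 of the 67 genes, and 13 of those had the motif in at least 1 window: Eef1akmt4, Eef1akmt4-ece2, Eef2, Eef2k, Eif1b, Eif3f, Eif3k, Eif4a1, Eif4e, Eif4g1, Eif4h, Eif5a, Eif5a2. The readthrough shares its window with Eef1akmt4. By window, 15 of 67 (22.4%) held it, against 6.02% of all 32851 windows and 8.15% of those of genes tested. Windows are not separate sites, since Eif5a has several with the motif. Its windows with the motif at 74 and 185 bases before the start overlap and hold the same CACGTG. No share by gene over all genes is given, so the share by window is a description only. Lymphoma 4 differed from lymphoma 1 by a median of -1.40 in log2(CPM + 1) over the 12 measured genes with the motif and -1.34 over the 37 without it. A match describes letters in a window and not binding.

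The scaffold genes were also mixed. Eif4g1, the main eIF4G, was at 156, 226, 463 and 329 CPM, lowest in lymphoma 1 and highest in lymphoma 3. Eif4g3 followed it at 38.4, 103, 174 and 169 CPM, with lymphomas 3 and 4 close. Eif4g2, which encodes DAP5, a form that does not bind eIF4E, was highest in lymphoma 1 and lowest in lymphoma 3 at 1312, 1167, 778 and 862 CPM. It is nearly as long as Eif4g3 (exonic lengths 10166 and 11063 bases). By FPKM, Eif4g1 made up 14.1, 19.99, 40.1 and 29.7% of the scaffold sum. Removal of the exonic length trend left Eif4g1 0.53 higher in log2 in lymphoma 4 than in lymphoma 1 (from 1.07) and Eif4g3 1.09 higher (from 2.11). The difference of Eif4g2 went from -0.61 to -1.52. With the implied length trend removed, the values were 0.33 for Eif4g1, 1.17 for Eif4g3 and -1.67 for Eif4g2. With total counts they were 1.55, 2.58 and -0.13, so the size of each difference depended on the setting.

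Among the cap-binding proteins, Eif4e was at 244, 193, 121 and 78.7 CPM and Eif4e2, which encodes the repressive homologue 4EHP, at 162, 131, 109.9 and 60.5 CPM. Both descended from lymphoma 1 to lymphoma 4. Eif4e3, for another and weaker cap binder, behaved differently. It had 160, 199, 13 and 170 counts, which were 20.2, 22.2, 1.28 and 18.7 CPM (Poisson 95% interval 0.679 to 2.18 in lymphoma 3 and 15.99 to 21.7 in lymphoma 4). Lymphoma 3 stood 4-fold or more below the other libraries, which were close to each other. The FPKM table gave 3.77, 4.397, 0.3104 and 3.899 FPKM, which did not pass the same rule on log2(FPKM + 1). Lymphoma 3 was also lowest for 8 of the 10 T cell markers (background 21.3%), with Cd3d at 653, 480.4, 0.981 and 55.1 CPM. Lck and Zap70 were lowest in lymphoma 4 instead, and Zap70 was highest in lymphoma 3. The 10 markers summed to 880.4 CPM in lymphoma 3 and 939 CPM in lymphoma 4, which were closer than the values of Eif4e3. The part of T cell content in Eif4e3 was not tested.

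**Figure D4:**
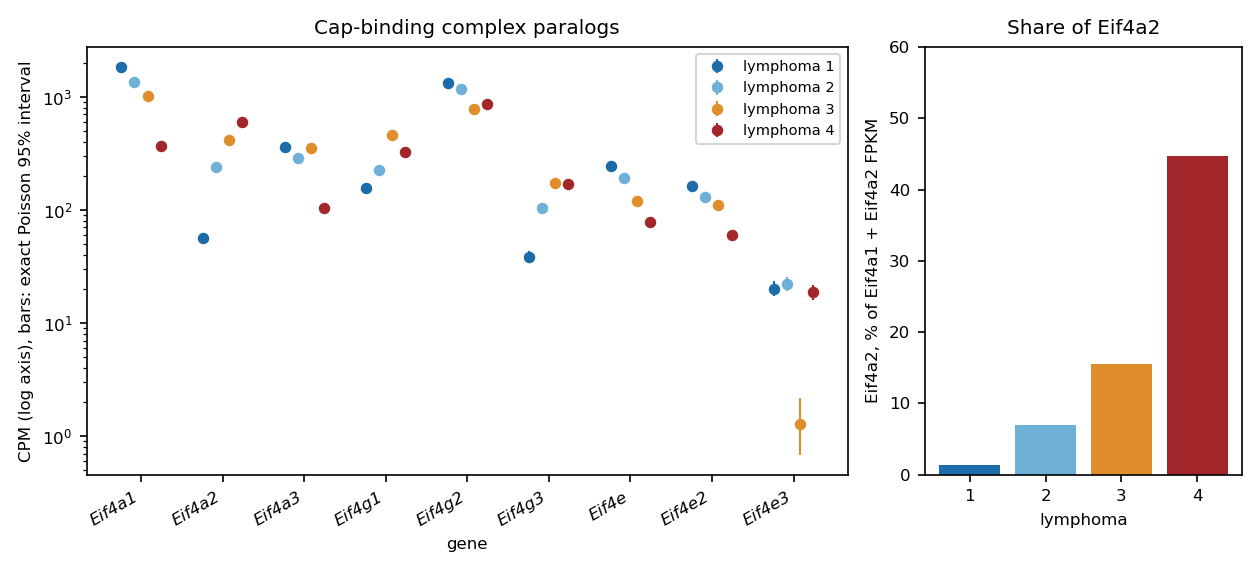
Left: CPM on a log axis of the eIF4A, eIF4G and eIF4E genes in each lymphoma, with exact Poisson 95% intervals as bars. Right: Eif4a2 as a percentage of the summed FPKM of Eif4a1 and Eif4a2, from 1.34% in lymphoma 1 to 44.7% in lymphoma 4.

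Of the repressors of eIF4E, the pair with the highest FPKM varied little. Eif4ebp2, the 4E-BP gene with the highest FPKM, was at 145, 136, 100.5 and 106 CPM, and Eif4ebp1 at 24.9, 17.1, 21.2 and 19.2 CPM. These are ranges of 1.44-fold and 1.43-fold, among the 5 narrowest of genes with a mean of 10 CPM or more. For Eif4ebp1 the log2 difference between lymphomas 4 and 1 turned from -0.35 to 0.85 with the implied length trend removed and to 0.10 with total counts, and that of Eif4ebp2 from -0.44 to 0.034 with total counts. Eif4ebp3, with 25, 47, 105 and 74 counts, was low throughout at 3.16, 5.24, 10.3 and 8.14 CPM and lowest in lymphoma 1. Its exons overlap another gene on the same strand, which can draw reads away. The summed FPKM of the 3 genes over that of Eif4e was 2.52, 2.59, 3.96 and 5.13, and by counts over exonic length 0.999, 1.196, 2.04 and 2.905, highest in lymphoma 4 on both scales. Eif4enif1 encodes 4E-T, which carries eIF4E into the nucleus and processing bodies. It was at 35.5, 45.6, 175 and 60.8 CPM, highest in lymphoma 3 and 4.82-fold lower in lymphoma 1 on the CPM + 1 scale.

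Factors of subunit joining did not share an order. Eif5, the GTPase activator of eIF2, was at 355, 364, 216 and 356 CPM, with lymphomas 1, 2 and 4 close and lymphoma 3 lower. Eif5b, the GTPase that joins the subunits, was at 45.6, 64.7, 157 and 107 CPM, lowest in lymphoma 1. Eif6, which keeps the large subunit free until it is mature, was at 302, 234, 188 and 56.4 CPM and lay 5.27-fold lower in lymphoma 4 than in lymphoma 1. The group's median differed by -1.48 in log2(CPM + 1) between lymphomas 4 and 1, while the median of its genes' own differences was that of Eif5, 0.0049.

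eIF5A, the factor that carries the amino acid hypusine and relieves stalled ribosomes, showed a low value in lymphoma 4. Eif5a (chromosome 11, 69916714 to 69921958, minus strand) was at 3869.8, 2746, 2427 and 534 CPM. Lymphoma 4 stood 4-fold or more below the nearest library and 7.23-fold below lymphoma 1, and the first of these was lost with either length trend removed (log2 difference -2.56 and -1.95, from -2.85). Its paralog Eif5a2, with 62, 34, 3 and 72 counts, was at 7.83, 3.79, 0.294 and 7.92 CPM, so that only lymphoma 3 was near the floor. By FPKM Eif5a2 was at most 0.235% of the pair. The hypusine enzyme genes Dohh and Dhps were at 128, 86.99, 62.4 and 23.3 CPM for Dohh and 77.7, 61.6, 38.7 and 38.04 CPM for Dhps, the second chosen after its values were seen. Dohh, like Eif5a, was highest in lymphoma 1 and lowest in lymphoma 4.

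Eef1a1 and Eef2 had the highest mean FPKM of the set. The measured genes of eEF1 and eEF2 were all highest in lymphoma 1 and lowest in lymphoma 4 (background 19.3%). Eef1a1 (chromosome 9, 78478449 to 78489151, minus strand) was at 36334, 27240.2, 15414 and 14718 CPM and 14448, 12289, 7632 and 6668 FPKM, with lymphoma 1 highest and lymphomas 3 and 4 close. Eef2 was at 13014, 9874, 6965 and 4944 CPM, in the order lymphoma 1, 2, 3, 4. The ratio of Eef1a1 to Eef2 in FPKM was 5.61, 5.58, 4.56 and 6.15, so that the pair differed between libraries less in ratio than in level. The eEF1B exchange factor genes ranged more widely. Eef1g was at 3549, 2558, 1281 and 943 CPM, Eef1b2 at 3435, 2411, 1456 and 951 CPM and Eef1d at 597, 435, 314 and 218 CPM, ranges of 3.76-fold, 3.61-fold and 2.73-fold. Eef1e1, whose product AIMP3 belongs to the tRNA synthetase complex, was at 92.3, 74.5, 33.5 and 23.6 CPM. With the implied length trend removed, the log2 difference between lymphomas 4 and 1 was -0.51 for Eef1a1 (from -1.30). For Eef1e1 it was -0.78 (from -1.92), so that neither remained 2-fold, and for Eef2 it was -1.30 (from -1.40). Eef1a1 has many processed pseudogenes, to which some of its reads may be lost. A list of 9 known TOP mRNAs among these genes, which start with a pyrimidine tract and are controlled by mTOR, was chosen after values were seen (Eef1a1, Eef1b2, Eef1d, Eef1g, Eef2, Eif3e, Eif3f, Eif3h and Eif4b). Of these, 8 (all but Eif4b) had their highest CPM in lymphoma 1 and 7 (all but Eif4b and Eif3e) their lowest in lymphoma 4. Over all 62 genes the shares were 69.4% and 66.1%, and over all genes tested 29.4% and 33.2%. The list's medians were 10.52, 10.09, 9.50 and 9.27 in log2(CPM + 1).

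Genes for enzymes that modify the elongation factors had medians of 4.61, 4.46, 4.20 and 3.76 in log2(CPM + 1). Those of all genes tested were 4.23, 4.56, 4.59 and 4.44. Eef2k, the kinase that inhibits eEF2, was at 52.2, 45.4, 21.1 and 20.7 CPM, with lymphomas 1 and 2 above lymphomas 3 and 4. Eef1akmt2, an eEF1A lysine methyltransferase, was at 23.4, 20.97, 16.3 and 6.49 CPM and lowest in lymphoma 4, as were Eef1akmt1, Eef1akmt4 and Eef2k. With the implied length trend removed, the log2 difference between lymphomas 4 and 1 was -0.66 for Eef1akmt2 (from -1.70), under 2-fold. For Eef2k it was -2.14 (from -1.29). Eef2kmt, which methylates eEF2, was lowest in lymphoma 1 at 13.4, 19.9, 27.6 and 17.7 CPM. Eef1akmt4 shares exons with a same-strand gene and its counts (54, 66, 53 and 18) are uncertain.

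Wide ranges between the libraries were found in a minority of translation factor genes. A range of 4-fold or more in CPM + 1 between libraries was seen for 17 of the 62 genes, against 35.7% of all genes tested, and 8-fold or more for 3 (Eif2ak4, Eif4a2 and Eif4e3; background 16.3%). Among genes with a mean of 5 CPM or more, 16 of 61 passed the 4-fold rule (background 37.1%). A range of 2-fold or more was seen in 52 (background 75.6%). The 4-fold genes were Eif1ax, Eif2s1, Eif2b1, Eif2b3, Eif2ak2, Eif2ak3, Eif2ak4, Eif3g, Eif4a1, Eif4a2, Eif4e3, Eif4g3, Eif4h, Eif4enif1, Eif5a, Eif5a2 and Eif6. Just inside the rule was Eif3g (4.02-fold) and just outside Eef1e1 (3.79-fold). With a library left out, 5 genes passed without lymphoma 1, 7 without lymphoma 4, 13 without lymphoma 3 and 17 without lymphoma 2. A single library stood 4-fold or more apart for 3 genes (Eif4a2, Eif4e3 and Eif5a; background 9.72%), each time below the others (background 5.3%), and none stood above (0 of 62, background 4.42%). Without lymphoma 2 there were 5 such genes, with Eif2ak4 and Eif4g3 added in lymphoma 1, and 2 without lymphoma 1 or without lymphoma 4. For the counts with a library left out, no share over all genes is given, so they are descriptions only. At the other end, Eif4b (1.33-fold), Eif4ebp1, Eif4ebp2, Eif3c and Eif5 (1.68-fold) had the smallest ranges among genes with a mean of 10 CPM or more.

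Transcript length moved with these differences. Across 13409 genes with a known exonic length the Spearman rho between length and the log2 ratio of lymphoma 4 to lymphoma 1 was 0.262, and across the 62 translation factor genes it was 0.305. These are descriptions across genes, which share their libraries and are not independent replicates. Of the 31 shorter genes (up to 3757 bases), 29 were lower in lymphoma 4 than in lymphoma 1, with a median difference of -1.59 in log2(CPM + 1). Of the 31 longer ones, 18 were, with a median of -1.08. Over all genes of known length, split into 10 groups by length, the median difference was -0.46 in the shortest group and 1.19 in the longest. In the groups with median lengths of 2603 and 5526 bases it was -0.28 and 0.33. Eif1ax, Eif2s1, Eif4h and Eif4a1, with exonic lengths of 4334 to 5551 bases, were lower in lymphoma 4, and Eif4a2, at 5338 bases, was higher. After removal of each library's exonic length trend, 40 of 62 genes were lowest in lymphoma 4 (33.4% of all genes), and the median difference between lymphomas 4 and 1 was -1.27. With length taken instead from the ratio of the authors' counts to their FPKM, an alternative chosen after seeing the data, 29 were lowest in lymphoma 4 (32.1% of all genes) and the median difference was -0.67.

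**Figure D5:**
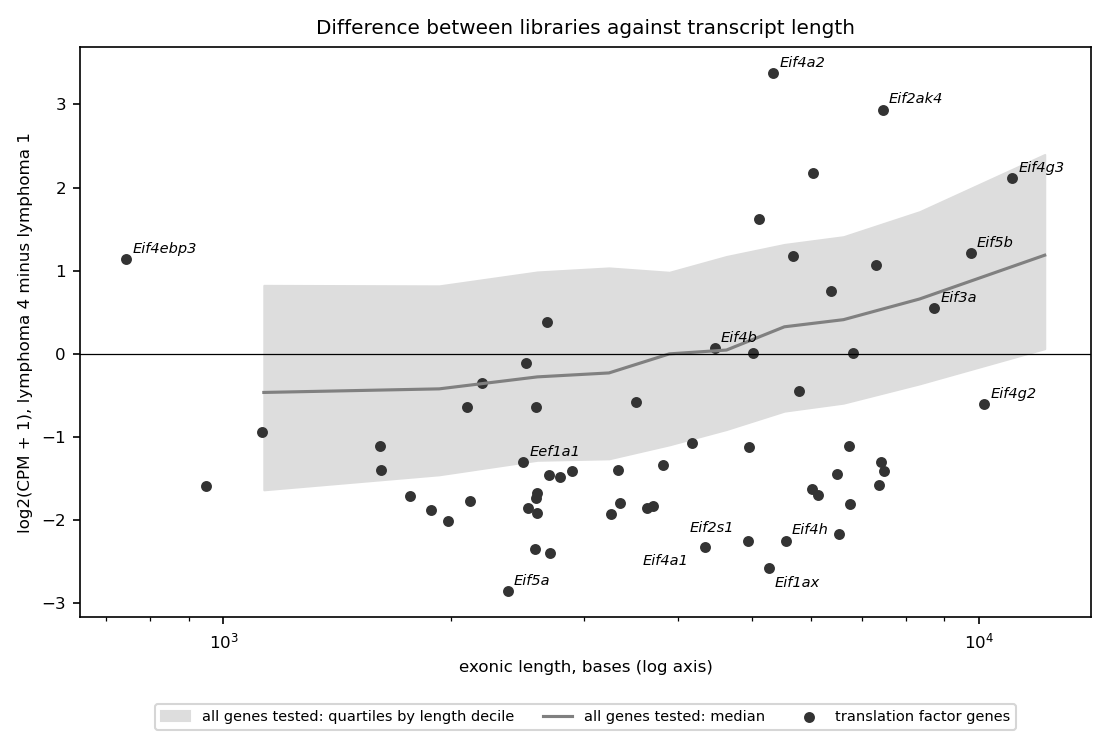
Difference of lymphoma 4 from lymphoma 1 in log2(CPM + 1) against exonic length on a log axis, with each translation factor gene as a point and, in grey, the median and quartiles of all genes tested in 10 groups of length. Points such as Eif5a, Eif1ax and Eif2s1 lie below the grey band and Eif4a2 and Eif2ak4 above it, while Eif4g3, Eif5b and Eif3a follow the grey median or lie within the band.

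Other genes of the translation pathway were listed for the same description. Of 71 measured genes on the further lists, 36 were highest in lymphoma 1 (background 29.4%), 35 lowest in lymphoma 4 (background 33.2%), and 14 passed the 4-fold rule (background 35.7%). Of 8 hypusine and diphthamide enzyme genes 6, and of 10 mitochondrial translation factor genes 8, were lowest in lymphoma 4. Tufm, the mitochondrial counterpart of eEF1A, was at 232, 171, 109.5 and 53.4 CPM, and Tsfm, its exchange factor, at 61.6, 43.9, 39.5 and 8.47 CPM, standing apart below in lymphoma 4. The poly(A) binding protein gene Pabpc1, at 3153, 2508, 2272 and 2183 CPM, and the TOP gene Tpt1, at 6932, 5348, 3147 and 4788 CPM, had narrower ranges of 1.44-fold and 2.202-fold, and Etf1, for the termination factor eRF1, was at 403, 311, 181 and 138 CPM. Values of the further lists were not recomputed with a length trend removed, and long transcripts were lower in lymphoma 1 across all genes. On the mTOR and MNK list, 9 of 12 genes were lowest in lymphoma 1 (background 35.7%). Of these, Tsc1, an inhibitor of mTOR signalling, was at 5.94, 22.2, 41.2 and 45.1 CPM, while Mknk2, an eIF4E kinase gene on the same list, was lowest in lymphoma 3 at 269, 287, 85.5 and 210.2 CPM. Among gene families measured the same way, 67 of 78 cytosolic ribosomal protein, 17 of 20 aminoacyl tRNA synthetase and 32 of 33 constitutive proteasome genes were lowest in lymphoma 4 (background 33.2%).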

How the data were processed

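The main table holds the authors' raw counts per gene. The submitters' processing notes name STAR 2.4.2a, Cufflinks 2.2.1 and mm10. A second deposited table names no unit, and its values were read as FPKM. For strand, annotation release and read filters, settings were not given in the sources used here. Another 5 columns of the FPKM table, whose names fit no sample's labels, were left aside. In 26 rows of the count table the gene name had become a date. They held 0.191% to 0.201% of counts and were left out. CPM used TMM factors (0.838, 0.961, 1.06 and 1.17) from edgeR 4.0.16 in R 4.3.3, estimated on 13543 genes that reached 1 CPM in some library, and Python 3.11.15 for the rest. Fold rules used log2(CPM + 1), a scale that understates changes near the floor, with thresholds of 4-fold and, for a library standing apart, at least 10 CPM in the high libraries. Poisson intervals are exact at 95%. The rules were run on simulated counts with large planted changes in well-expressed genes and no length trend. That run does not cover changes near 4-fold, genes of low counts or the length trend. Exonic lengths and positions are from GENCODE M21 (GRCm38), matched for 66 of 67 genes, and promoter windows from RefSeq (GRCm38.p6). Of the 62 measured genes, 26 have exons that overlap another gene's. Named are, in each role group and each further list, the most abundant gene and the most variable on the log2 scale, genes standing apart, the 5 largest and 5 smallest ranges, the paralog sets and the eIF2 kinases. Genes outside this rule illustrate their group, with values already in view. Alternatives were DESeq2 1.42.0 size factors, total counts, other filters, a pseudocount of 0.25 CPM, 2-fold and 8-fold rules, the FPKM table, removal of length trends by lowess, and leaving out each library. The genes and lists were chosen with earlier results of these data known.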

Additional observations from a re-analysis of the deposited data

Results flagged for a closer look

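In a group of 4, a library was looked at again when its gap to the nearest other took up more of the whole range than Dixon's critical value for 95% confidence allows, which chance gives in about 1 of 20 groups. Of 79 values examined, 4 did so. Among translation factor genes, Eif4e3 was at 1.28 CPM in lymphoma 3 against 18.7 to 22.2 CPM in the others, and Eif5, the eIF2 GTPase activator, was at 216 CPM in lymphoma 3 against 355 to 364 CPM. Among the cell type markers, the macrophage gene Adgre1 was at 69.2 CPM in lymphoma 4 against 2.45 to 10.3 CPM, and Siglech, of plasmacytoid dendritic cells, was at 40.7 CPM there against 0.126 to 2.68 CPM.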

How the results depend on the processing

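No direction of 2-fold or more between lymphomas 4 and 1 was reversed for the role groups or for the detected translation factor genes named by the rule, which were recomputed under the alternatives. The genes of other lists were not recomputed, and shares over all genes are not given here for counts under the alternatives. The number of genes with a 4-fold range was 17, and 52 with a 2-fold rule, 3 with an 8-fold rule, 11 with total counts, 10 with the implied length trend removed and 5 to 17 with a library left out. Genes standing apart numbered 3, and 21 with a 2-fold rule, 1 with an 8-fold rule, 1 with either length trend removed and 2 to 5 with a library left out. Under total counts, 5 genes were highest in lymphoma 2, 8 highest in lymphoma 4 and 1 lowest in lymphoma 2 (from 3, 4 and 2). DESeq2 size factors and the exonic length trend each gave 1 gene highest in lymphoma 2. The FPKM table gave 0 genes lowest in lymphoma 2 and 4 lowest in lymphoma 3, and the implied length trend gave 17 lowest in lymphoma 3 (from 7). With a library left out, 3 to 40 genes were highest in lymphoma 2, 4 to 13 highest in lymphoma 4, 3 to 13 lowest in lymphoma 2 and 7 to 41 lowest in lymphoma 3, with 40 and 13 reached without lymphoma 1, 13 highest in lymphoma 4 without lymphoma 3, and 41 without lymphoma 4, since the extreme then passes to the next library. Group medians (lymphoma 4 minus lymphoma 1, log2) moved by more than their SD for the eIF4E-binding repressors (0.20, and 0.65 with the implied length trend removed and 0.67 with total counts), for eIF5, eIF5B and eIF6 (-1.48, and -0.66 in FPKM), for eIF5A (-1.42, and -2.78 in FPKM and -2.85 with a mean of 5 CPM, where Eif5a2 drops out) and for the elongation factor modifiers (-0.85, and -1.44 in FPKM, -0.35 and -0.18 with the exonic and implied length trends removed and -0.39 with total counts). By counts over exonic length, Eif4e3 averaged 13.5% of its set and Eif5a2 0.216% of its pair, against 7.16% and 0.0729% in FPKM. Without Eef1a1 the mean share of counts was 2.84%. For these moves the cause was not tested except where stated. Depth limits Eif4ebp3, Eif5a2 and Eif4e3 in lymphoma 3. No paired analysis was possible because there is 1 group.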

Other observations

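Genes on the list of the integrated stress response, the programme that eIF2 phosphorylation sets off through the transcription factor ATF4, did not share one order. Atf4 itself was at 165, 216, 279 and 248.7 CPM, lowest in lymphoma 1. Phgdh, the first enzyme of serine synthesis and an ATF4 target, was at 1021, 694, 254 and 120.1 CPM, highest in lymphoma 1. The next enzyme gene of that route, Psat1, was at 749, 524, 229.8 and 30.9 CPM, and asparagine synthetase gene Asns at 105, 69.3, 22.7 and 4.84 CPM, both standing 4-fold or more below the other libraries in lymphoma 4. Phgdh, Psat1 and Asns had the order of the eIF2 subunits. Of the 15 measured genes on the list, 6 were lowest in lymphoma 4 (background 33.2%). Another 5 were lowest in lymphoma 3 (background 21.3%) and 4 in lymphoma 1 (background 35.7%). Another pair of stress genes was highest in lymphomas 2 and 4: Atf3 was at 0.758, 23.5, 0.393 and 17.7 CPM, and Ppp1r15a, which encodes the GADD34 subunit that reverses eIF2 phosphorylation, at 7.71, 193, 23.9 and 128 CPM. Except for Phgdh and Atf3, these genes were chosen after their values were seen, and RNA levels do not show the phosphorylation of eIF2.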
